A study of Manis javanica with 3 samples.

Results

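The genes of gastric acid secretion and of its endocrine control were examined in RNA from 3 tissues of a Malayan pangolin (Manis javanica). The set was defined by 10 symbols, namely ATP4A, ATP4B, GIF (also called CBLIF), CCKBR, HRH2, GAST, SST, GHRL, CHGA and HDC, read from the Swiss-Prot entry of each gene or, failing that, its KEGG entry. The symbols were carried by 15 of the 24220 genes in the expression tables. In 12 of these 15 genes the product in the NR protein database named the same protein. The other 3 carried the symbol HRH2 but had the NR products of GPR135, GPR148 and GPR61, which are other G protein-coupled receptors.

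The animal was a wild adult female that died while being rescued, and the sources describe no experimental treatment. Its small intestine, salivary glands and liver were frozen after dissection. Poly-A RNA of each tissue was sequenced as 1 library, so no value given here has a replicate check and no p-value was computed. Fragments counted on genes came to 10158924 for small intestine, 8318686 for salivary glands and 14568778 for liver, and values below are given in that order of tissues unless stated. A count of 0 is taken to allow up to 3 fragments, or 0.295, 0.361 and 0.206 CPM (fragments set to a common library size). A fold given as at least a value sets the observed count over that floor and leaves out the counting error of that count. All intervals given are 95% intervals that cover counting error only.

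Acid is secreted by parietal cells of the stomach, whose proton pump exchanges hydrogen ions for potassium ions and consists of a catalytic alpha subunit and a glycosylated beta subunit. Secretion is raised by gastrin from antral G cells, by acetylcholine from nerves, and by histamine from enterochromaffin-like cells, which respond to gastrin themselves. It is restrained by somatostatin from D cells, and further endocrine cells of the stomach release ghrelin.

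Most transcripts of absorptive enterocytes were at 0 or low in the library labelled small intestine. FABP2, FABP1, LCT and CDX1 had 0 fragments there, sucrase-isomaltase (SI) had 2, and only VIL1 and SLC5A1 of the 12 enterocyte genes found had an FPKM (fragments scaled for transcript length and mapped fragments) above 1. The FPKM of VIL1 was 24.0 in that library, 25.7 in salivary glands and 21.2 in liver. The transporters SLC5A1 and SLC15A1 had 63 and 14 fragments in the library labelled small intestine, 10 and 0 in salivary glands, and 24 and 4 in liver. The peptidase ANPEP had 26, 2 and 167, and APOA4 had 17, 0 and 1695. Of the 6 enterocyte genes tested, 4 were at least 2-fold higher in the library labelled small intestine than in salivary glands and 1 lower. Against liver, 2 were higher and 3 lower. Over all genes tested, 20.6% were higher and 16.9% lower than in salivary glands, and 24.2% were higher and 24.2% lower than in liver. The defining transcripts of gastric mucosa were abundant in it. Pepsin A had an FPKM of 94138, acidic chitinase (CHIA) of 43108, trefoil factor TFF2 of 3223 and TFF1 of 1148. All 7 genes of pit and neck mucous cells that were found, and 7 of 8 of chief cells, were above an FPKM of 1. Gastric lipase (LIPF) had 5 fragments there and 0 in both other libraries. In each list 1 gene was lower than in salivary glands, namely AQP5, with an FPKM of 2.29, 94.3 and 24.7, and BHLHA15, with 24.5, 95.9 and 64.8. In the liver library, the hepatocyte genes FGB and TAT had an FPKM of 12822 and 4316, and all 8 genes of that list were above 1. Of salivary acinar genes, which include AQP5, an alpha-amylase (AMY2A) had an FPKM of 8.56, 5.39 and 16.3, lowest in the salivary gland library, and LPO, BPIFA2 and BPIFA1 had 6, 2 and 0 fragments in that library. Of goblet cell genes, MUC2 had 177, 1 and 1 fragments, with an FPKM of 1.17 in the library labelled small intestine, CLCA1 had 33, 1 and 6, and FCGBP had 63, 30 and 187. All 3 were at least 2-fold higher in the library labelled small intestine than in salivary glands, and MUC2 and CLCA1 also than in liver. Of pancreatic acinar genes, a cationic trypsin gene (PRSS1) was at 0.122 in the library labelled small intestine and at 77.3 in liver. Of the 9 genes found in that list, 4, 2 and 4 had an FPKM above 1, with a maximum of 22.7 in the library labelled small intestine. Of 5 tested, 3 were higher there than in salivary glands and 1 lower. Of 6 tested, 3 were higher there than in liver and 2 lower. Because of the gastric transcripts, the first library is called below the library labelled small intestine, and its label cannot be checked further here. In a bulk library, fewer cells of a type and less RNA per cell cannot be told apart.

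The deposited FPKM is not fixed by count and length alone. Among genes with at least 10 fragments, it differed by more than 1.5 times from the value recomputed from the count, listed length and library total for 28.6% in the library labelled small intestine, 15.2% in salivary glands and 24.9% in liver. Recomputed in this way, the FPKM in the library labelled small intestine was 572 for TFF1, 14.6 for VIL1, 133 for MYLK, 88.1 for GNAS, 7.67 for KCNE2, 2.31 for SCG2, 16.7 for the more abundant SYP gene and 7.88 for the PAM gene gene18566, each over 1.5 times below its deposited value. Folds between libraries rest on counts and do not depend on it.

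Both subunits of the proton pump were among the most abundant transcripts of the library labelled small intestine. ATP4A, the catalytic alpha subunit (gene10658, scaffold NW_016534417.1, bases 509499 to 522524, minus strand), had 38724 fragments there, 41 in salivary glands and 0 in liver. Its FPKM was 1073, 0.941 and 0 in the same order. It ranked 54 of 24220 genes by FPKM in the first of these libraries and held 3812 CPM of it (Wilson interval 3774 to 3849.9 CPM).

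ATP4B, the beta subunit that carries the pump to the membrane (gene11562, NW_016535202.1, bases 372403 to 377703, plus strand), had 5060, 12 and 0 fragments in the libraries labelled small intestine, salivary glands and liver. Its FPKM was 652, 1.27 and 0, and it ranked 101 in the first. The subunits were thus high together in 1 library and not detected at this depth in the liver library. Per length, ATP4A stood 1.65 times above ATP4B in the library labelled small intestine by the deposited FPKM. With FPKM recomputed from the count, the listed length and the library total, ATP4B was at 476 and the ratio was 2.17.

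On counts scaled by TMM, a scaling that assumes most genes do not differ, ATP4A was 1062-fold higher in the library labelled small intestine than in the salivary gland library (interval 783 to 1480, exact conditional binomial). ATP4B was 474-fold higher (interval 271 to 918). Set over the floor of 3 fragments in the liver library, ATP4A was 21850.4-fold higher and ATP4B 2855-fold higher. The lower limits of their exact intervals were 17769 and 2321.

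The fragments of the pump in the salivary gland library were few beside those in the library labelled small intestine. As a share of its CPM there, ATP4A stood at 0.129% and ATP4B at 0.290% in the salivary gland library. Of the abundant genes of the library labelled small intestine, 9 had an FPKM above 1000 there and below 1 in liver, ATP4A among them, and these had a median share of 0.115% (range 0.0492 to 0.138%). Whether these fragments were made in the salivary glands was not tested.

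**Figure D1:**
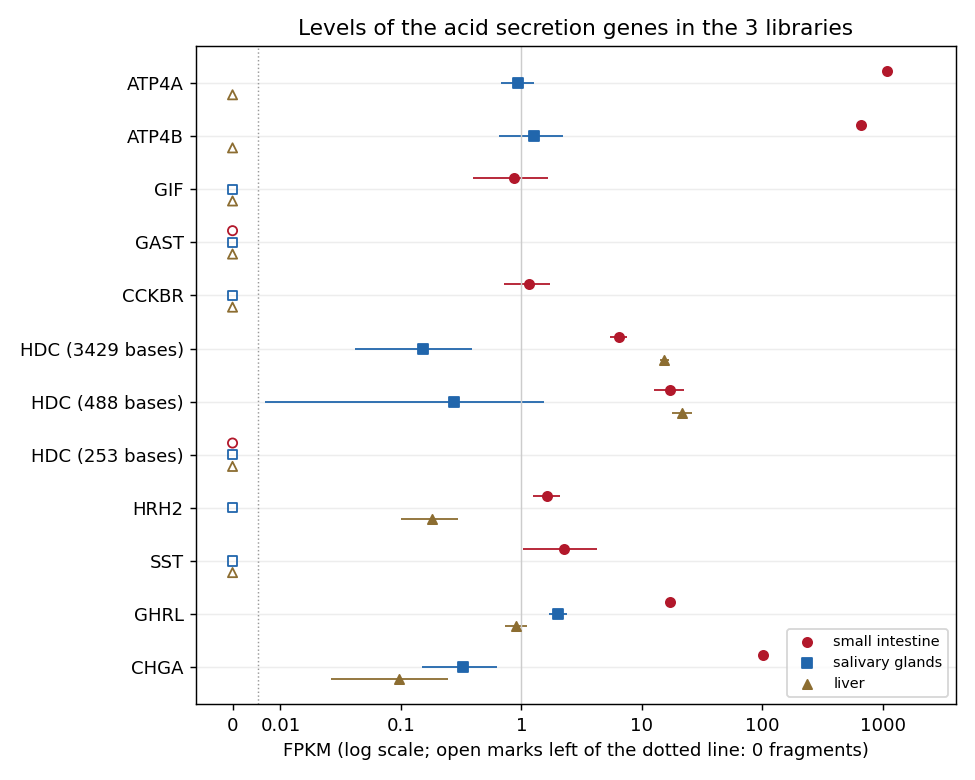
FPKM (log axis) of the 12 genes whose NR product names a member, in the library labelled small intestine (circles), salivary glands (squares) and liver (triangles), with 95% Poisson counting intervals drawn no lower than the dotted line and open marks for 0 fragments. ATP4A and ATP4B stand at 1073 and 652 in 1 library, GAST is at 0 in all 3, and the HDC genes with reads are highest in liver.

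Named relatives of the pump had other patterns. ATP12A, the alpha chain of the non-gastric proton pump, had 24, 30 and 1 fragments and an FPKM of 0.593, 0.648 and 0.0149 in the libraries labelled small intestine, salivary glands and liver. Its fold between the first and second of these was 0.899 (interval 0.503 to 1.59), an interval that holds no difference. ATP1B1, a beta subunit of the sodium pump, had an FPKM of 535, 160 and 32.5 and was 3.23-fold higher in the library labelled small intestine than in salivary glands (interval 3.10 to 3.38).

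GIF, the intrinsic factor that binds vitamin B12 and that parietal cells secrete in humans, was near the limit of detection. GIF (gene23731, NW_016558884.1, bases 99217 to 112462, minus strand) had 9 fragments in the library labelled small intestine and 0 in both others, with an FPKM of 0.872 (interval 0.399 to 1.66) in the first. Set over the floor of 3 fragments, it was 3.37-fold higher than in salivary glands and 5.08-fold higher than in liver. The lower limits of its exact intervals were 2.22 and 3.34. TCN1, which encodes haptocorrin, another binder of vitamin B12, is the next gene on the same scaffold and strand, 5358 bases away. TCN1 had an FPKM of 1456, 58.5 and 1.89 in the libraries labelled small intestine, salivary glands and liver, so its FPKM in the first was 1669 times that of GIF.

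Other genes of cobalamin carriage were spread over the libraries. AMN, the membrane partner of the receptor of intrinsic factor, had 4, 4 and 892 fragments and an FPKM of 0.362, 0.231 and 38.6. It was 132-fold higher in liver than in the library labelled small intestine (interval 51.3 to 485). Of 11 genes with NR products of this list, 2 of 7 tested were at least 2-fold higher in the library labelled small intestine than in salivary glands and 1 was lower, and 2 of 9 were higher than in liver and 3 lower. Of all genes tested, 20.6% were higher and 16.9% lower than in salivary glands, and 24.2% higher and 24.2% lower than in liver, so the share of this list was near that of all genes. LMBRD1, the lysosomal cobalamin transporter (gene8123), had an FPKM of 18.4, 31.95 and 41.3.

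Gastrin itself was not detected. GAST (gene11211, NW_016534927.1, bases 118026 to 119904) had 0 fragments in every library, which allows up to 0.295 CPM in the library labelled small intestine. CCKBR, the receptor of gastrin (gene12612), had 22 fragments there and 0 in both other libraries, with an FPKM of 1.15 (interval 0.720 to 1.74). Set over the floor of 3 fragments, it was 8.24-fold higher than in salivary glands and 12.4-fold higher than in liver. The lower limits of its exact intervals were 6.16 and 9.27.

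The restraining hormone was detected at a low level in the same library. SST, the precursor of somatostatin (gene4601), had 9, 0 and 0 fragments and an FPKM of 2.24 (interval 1.02 to 4.25) in the library labelled small intestine. Of its receptors, SSTR3 had an FPKM of 3.04, 0.501 and 0, and SSTR5 of 1.14, 0 and 0.120. SSTR2, with 0, 39 and 0 fragments, was detected in the salivary gland library alone, and SSTR4 had 0 fragments in all 3.

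HDC, the enzyme that makes histamine from histidine, was higher in liver than in the library labelled small intestine. Its symbol was on 3 genes, each the sole gene of a scaffold, and the files do not show whether they are pieces of 1 gene. The gene of 3429 bases (gene25978) had 149 fragments in the library labelled small intestine, 4 in salivary glands and 593 in liver, with an FPKM of 6.44, 0.152 and 15.4. The gene of 488 bases (gene25905) had 50, 1 and 120 fragments and an FPKM of 16.9, 0.278 and 21.6. The third, of 253 bases, had 0 fragments in every library.

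The gene of 3429 bases was 2.35-fold higher in liver than in the library labelled small intestine (interval 1.96 to 2.83), and that of 488 bases 1.42-fold higher (interval 1.01 to 2.01). With all 3 summed, 199, 5 and 713 fragments, HDC was 2.12-fold higher in liver than in the library labelled small intestine (interval 1.81 to 2.49). Summed, it was 44.7-fold higher in the library labelled small intestine than in salivary glands (interval 18.9 to 139). Liver stood highest and salivary glands lowest for both genes with reads. When the libraries were scaled without the 10 most abundant genes of each, both log2 differences between the library labelled small intestine and liver shrank. The longer gene went from -1.23 to -0.92, which is less than 2-fold, and the shorter gene from -0.50 to -0.19.

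Mast cells also make histamine. Of their genes, CPA3 and FCER1A had 0 fragments in all 3 libraries, CMA1 had 0, 1 and 0, and MS4A2 had 2, 0 and 0. KIT had 128, 91 and 2 fragments, and the tryptase TPSAB1 had 138, 14 and 29. The summed FPKM of the 8 mast cell genes found was 12.8 in the library labelled small intestine, 2.82 in salivary glands and 2.81 in liver. GATA2, which other blood and endothelial cells express too, was the only one of the 8 above an FPKM of 1 in liver, at 2.17. The part of mast cells in the HDC values of either library was not tested.

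The H2 receptor, through which histamine drives the parietal cell, followed a different order from its ligand's enzyme. HRH2 (gene9316) had 60 fragments in the library labelled small intestine, 0 in salivary glands and 15 in liver, with an FPKM of 1.64, 0 and 0.179. It was 6.77-fold higher in the library labelled small intestine than in liver (interval 3.80 to 12.8). Set over the floor of salivary glands it was 22.5-fold higher, with a lower interval limit of 17.7. The gene with the NR product of GPR135 (gene11108) had 9, 13 and 81 fragments, that of GPR61 (gene12483) 1, 2 and 1, and that of GPR148 (gene19123) 0 in all 3. Under the symbol alone, then, the most abundant HRH2 gene of liver was GPR135.

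The H3 receptor restrains histamine release in brain and stomach, and the gene with its NR product was highest in liver. HRH3, by its NR product (gene21741, whose Swiss-Prot symbol is CHRM5), had 1, 0 and 716 fragments and an FPKM of 0.0927, 0 and 24.3. It was 423-fold higher in liver than in the library labelled small intestine (interval 75.7 to 16729.6, with 1 fragment in the latter), and at least 159-fold higher in liver than in salivary glands. HRH1 had 7, 0 and 7 fragments and HRH4 had 0, 0 and 1.

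Most genes listed for histamine breakdown had reads in every library. HNMT, which methylates histamine, had an FPKM of 13.4, 1.41 and 6.43 and was 8.88-fold higher in the library labelled small intestine than in salivary glands (interval 5.56 to 14.9). Recomputed, its FPKM was 6.02, 0.930 and 2.58. MAOA, a monoamine oxidase named by symbol alone, had an FPKM of 19.2, 6.99 and 0.996. AOC1, the extracellular diamine oxidase, had 2, 0 and 10 fragments.

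GHRL, the precursor of ghrelin, was the only hormone gene of the set above an FPKM of 1 in a library other than the one labelled small intestine. GHRL (gene18976, NW_016544448.1, bases 318607 to 328519, minus strand) had 1044, 142 and 94 fragments and an FPKM of 17.1, 2.01 and 0.901. It was 8.27-fold higher in the library labelled small intestine than in salivary glands (interval 6.93 to 9.92) and 18.8-fold higher than in liver (interval 15.2 to 23.5). Its gene model lists 6193 bases of transcript and overlaps the plus-strand gene of NR product TATDN2 by 250 bases. The libraries were aligned as unstranded, so reads of both in that stretch cannot be told apart. The TATDN2 gene had 384, 458 and 285 fragments, a fold of 0.943 between the library labelled small intestine and salivary glands. MBOAT4, which acylates ghrelin, had 10, 24 and 20 fragments, and GHSR, the receptor of ghrelin, had 0 in all 3.

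CHGA, chromogranin A of the hormone granule, was the third most abundant member. CHGA (gene20501, NW_016547510.1, bases 99365 to 111426, plus strand) had 2071, 9 and 4 fragments and an FPKM of 101, 0.329 and 0.0956 in the libraries labelled small intestine, salivary glands and liver. It was 259-fold higher in the first than in salivary glands (interval 136 to 567) and 876-fold higher than in liver (interval 342 to 3219.7). Its rank in the first was 425 of 24220 genes.

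**Figure D2:**
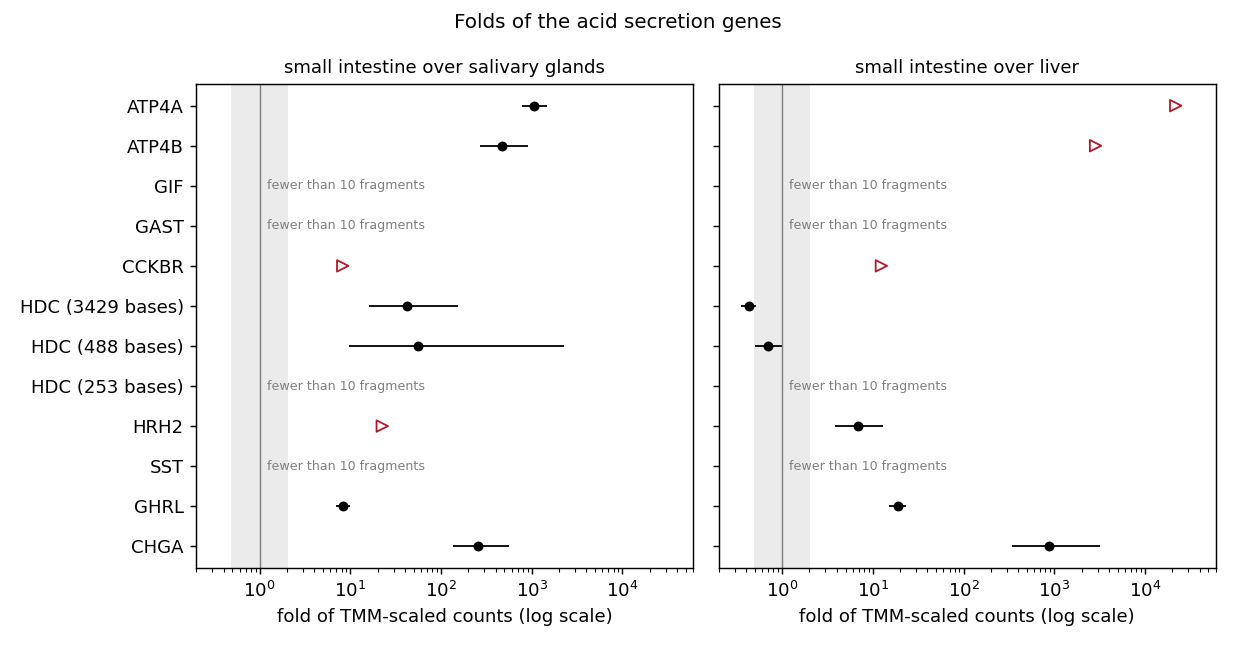
Fold of TMM-scaled counts (log axis) of the library labelled small intestine over salivary glands (left) and over liver (right). Bars are 95% exact conditional binomial intervals. Open triangles set the count over a floor of 3 fragments and leave out the counting error of that count. The grey band is less than 2-fold. The genes drawn are the 12 named by NR product, and those with at least 10 fragments lie to the right of the band on the left panel, while the HDC genes fall at 0.425 and 0.705 on the right.

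Within the library labelled small intestine, the members fell in the order ATP4A, ATP4B, CHGA, GHRL, the 2 HDC genes, SST, HRH2, CCKBR and GIF by FPKM. The counting intervals of ATP4A, ATP4B and CHGA did not overlap those of their neighbours. GHRL at 17.1 and the shorter HDC gene at 16.9 overlapped, as did each neighbouring pair from SST down to GIF. Recomputed from the count, listed length and library total, the FPKM there was 10.1 for the shorter HDC gene, 4.28 for the longer and 1.47 for SST, and the order was the same. In the liver library both HDC genes came first and GHRL, HRH2 and CHGA followed. In the salivary gland library GHRL came first, with an interval that overlapped that of ATP4B.

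An FPKM above 1 was found for 9 of the 15 genes in the library labelled small intestine and for 2 in salivary glands (GHRL and ATP4B). In liver it was found for 3 (both HDC genes with reads and the GPR135 gene). Of all 24220 genes, 14392, 13631 and 13810 were above 1 in these libraries. The share of members was thus near that of all genes in the library labelled small intestine and below it in both others. At least 10 fragments in either library were required for a call, which left out GIF, SST, GAST, the 253-base HDC gene and the GPR61 and GPR148 genes. In the comparison with salivary glands, 9 of the 15 genes were tested, of which 8 were at least 2-fold higher in the library labelled small intestine and 0 were lower. Of all 16519 genes tested there, 20.6% were higher and 16.9% lower. In the comparison with liver, 9 were tested, of which 6 were higher and 2 lower, the longer HDC gene and the GPR135 gene. Of all 17399 genes tested there, 24.2% were higher and 24.2% lower. A gene that reaches 10 fragments only where it is high has to differ, so these counts are given as a description.

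The ion channels, exchangers and companions of the pump were mostly higher in the library labelled small intestine. Of 23 genes with NR products of the list, 20 had enough fragments for the comparison with salivary glands, of which 15 were at least 2-fold higher and 4 lower. Against liver, 17 of 19 were higher and 0 lower. Over all genes tested, 20.6% were higher and 16.9% lower than in salivary glands, and 24.2% were higher and 24.2% lower than in liver. The share of the list lower than in salivary glands was thus near that of all genes. The median log2 difference of the list was 3.32 against salivary glands and 6.78 against liver, where all tested genes had medians of -0.015 and -0.079. By symbol, 13 of 21 were higher and 3 lower than in salivary glands, and 14 of 20 were higher and 3 lower than in liver.

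Potassium must return to the lumen for the pump to turn over. KCNE2, the beta subunit of the luminal potassium channel, had an FPKM of 12.5, 0.277 and 0 in the libraries labelled small intestine, salivary glands and liver. Its alpha subunit KCNQ1 was on 3 genes, 1 of them with 0 fragments, and the gene of 2419 bases had an FPKM of 11.2, 0.354 and 0.751, and that of 2319 bases 6.57, 0.217 and 0.299. KCNJ15, an inward rectifier, had 22.6, 4.42 and 0.0454, while KCNJ16 of the same family had 9.22, 33.1 and 0.317 and so was highest in salivary glands.

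Chloride and bicarbonate move through exchangers on either face of the cell. SLC4A2, the basolateral chloride-bicarbonate exchanger, had an FPKM of 32.3, 10.9 and 20.5, and SLC26A9, a chloride transporter of gastric epithelium, had 10.3, 1.69 and 0.0722. The sodium-proton exchanger SLC9A4 had 342, 0 and 0 fragments and was at least 128-fold higher in the library labelled small intestine than in salivary glands. SLC9A2, of the same family, had an FPKM of 15.9 in the library labelled small intestine, 0.231 in salivary glands and 0.0396 in liver.

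The enzymes and scaffold proteins that serve the pump were also highest in the library labelled small intestine. CA2, carbonic anhydrase, which supplies the protons, had 979, 1 and 15 fragments and an FPKM of 85.8, 0.0939 and 0.833, or 22.5, 0.0281 and 0.240 when recomputed from the count. CKB, the creatine kinase that buffers ATP, had 392, 9.45 and 18.2, and EZR, the ezrin that links membrane to actin, had 131, 49.5 and 22.4. CLIC6, a chloride intracellular channel protein, was on 2 genes with an FPKM of 52.1 and 31.1 in the library labelled small intestine and at most 2.47 in the other libraries. ESRRG, a nuclear receptor, had 12.3, 2.79 and 0.0845, and the water channel AQP4 had 1.72, 0.0732 and 0.0194.

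Besides KCNJ16, the list genes lower than in salivary glands were SLC12A2 and both CFTR genes. SLC12A2, the basolateral sodium-potassium-chloride cotransporter, had an FPKM of 7.51, 40.8 and 1.36, and was 6.93-fold higher in the library labelled small intestine than in liver. CFTR, a chloride channel, had 5 and 6 fragments in the library labelled small intestine and 249 and 114 in salivary glands.

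**Figure D3:**
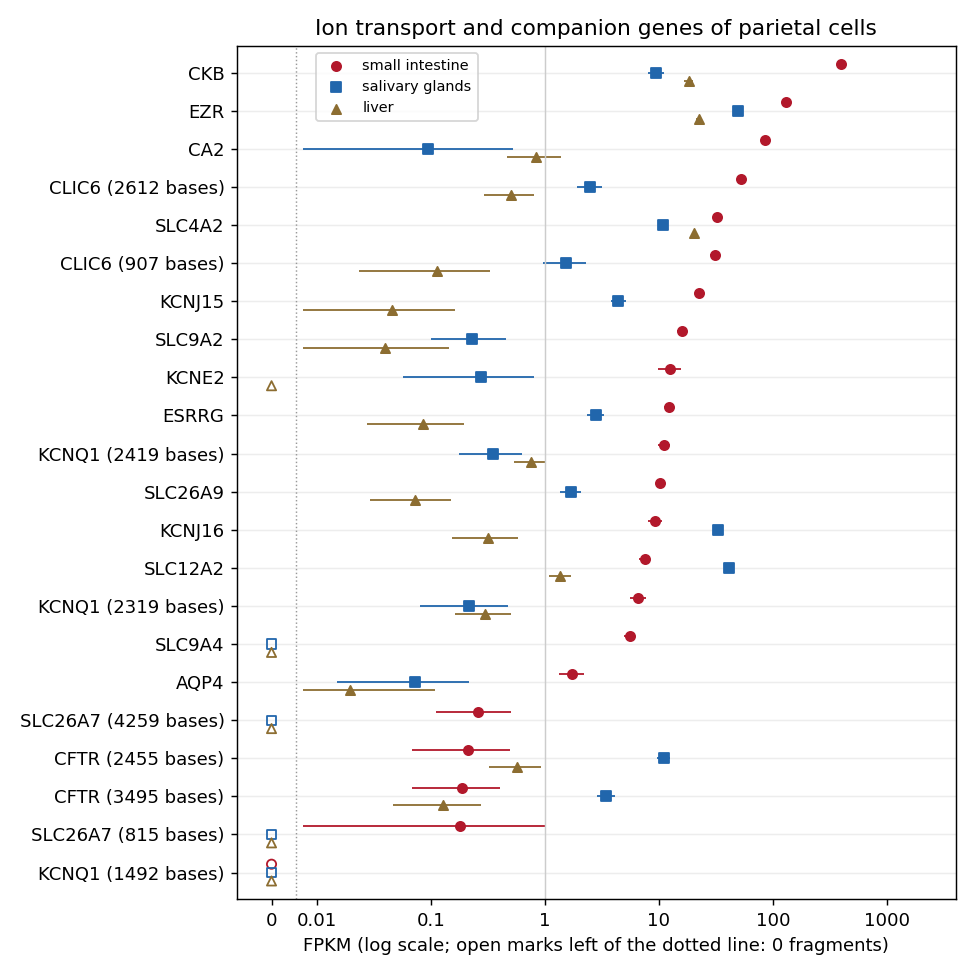
FPKM (log axis) of 22 parietal cell ion transport and companion genes in the 3 libraries, marked as in the plot of member levels and sorted by the library labelled small intestine. CKB stands highest at 392, and KCNJ16, SLC12A2 and both CFTR genes are the ones highest in salivary glands.

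The receptors by which acid is raised or restrained were mostly low, apart from the gene named HRH3 by its NR product in liver. Of 15 receptor genes found by NR product, 6 had an FPKM above 1 in the library labelled small intestine, 2 in salivary glands and 2 in liver. PTGER3, the prostaglandin receptor that restrains acid, had an FPKM of 9.58, 0.0925 and 0.0281 and was 89.1-fold higher in the library labelled small intestine than in salivary glands (interval 34.5 to 329). Recomputed, its FPKM in the library labelled small intestine was 2.90. CHRM3, the muscarinic receptor of both parietal and salivary cells, had 3.92, 9.91 and 0.0189 and was 2.66-fold higher in salivary glands. CCKAR, the receptor of cholecystokinin, had 50, 0 and 0 fragments and an FPKM of 2.51 in the first library, and PTGER4 had an FPKM of 1.26, 0.567 and 0.880. Of the 10 tested against salivary glands, 8 were higher and 2 lower, and of the 10 tested against liver, 6 were higher and 3 lower, where all genes tested had 20.6% higher and 16.9% lower, and 24.2% higher and 24.2% lower.

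Several granule genes other than CHGA had reads in all 3 libraries. CPE, the carboxypeptidase that trims prohormones, had an FPKM of 28.2, 7.27 and 9.38. CHGB had 4.10, 0.768 and 1.03, whereas SCG2 had 4.15, 0.164 and 14.6 and was 3.91-fold higher in liver than in the library labelled small intestine (interval 3.18 to 4.85). PAM, the amidating enzyme (gene4031), had 15.3, 33.9 and 37.9, and a further gene with its NR product (gene18566) had 15.2, 34.2 and 28.95. SCG3 and SCG5 were at 1.69 and 1.39 in the library labelled small intestine, and the vesicle protein SYP was at 28.99 and 1.61 on its 2 genes, the first of them named by symbol alone. Of the convertases, PCSK1 had 17, 0 and 1 fragments and PCSK2, on 2 genes, had 0 throughout. Of the 17 genes found, 7 of 13 tested were higher and 4 lower than in salivary glands, and 7 of 12 higher and 3 lower than in liver. The shares over all genes tested were 20.6% and 16.9% against salivary glands and 24.2% and 24.2% against liver, so the share lower than in liver was near that of all genes.

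Most other gut hormones were at or near 0. GIP, SCT, NTS and NMU had 0 fragments in every library, and CCK, PYY, GCG and MLN had 5, 4, 5 and 3 in the library labelled small intestine. VIP, a peptide of enteric nerves, had 128, 0 and 0 fragments and an FPKM of 11.9, and DDC, an amine-making decarboxylase, had 3.50, 0.151 and 0.0367. Both were at least 2-fold higher in the library labelled small intestine than in each other library, and the other 10 genes of the list had too few fragments for a call. Over all genes tested, 20.6% were higher than in salivary glands and 24.2% than in liver. VIP and DDC reached 10 fragments only in the library where they were high, so these calls are a description. Of 10 endocrine lineage factors found, INSM1 had 30, 0 and 0 fragments, NEUROD1 had 10, 0 and 0, and NEUROG3, PAX4 and NKX6-3 had 0 in all 3.

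**Figure D4:**
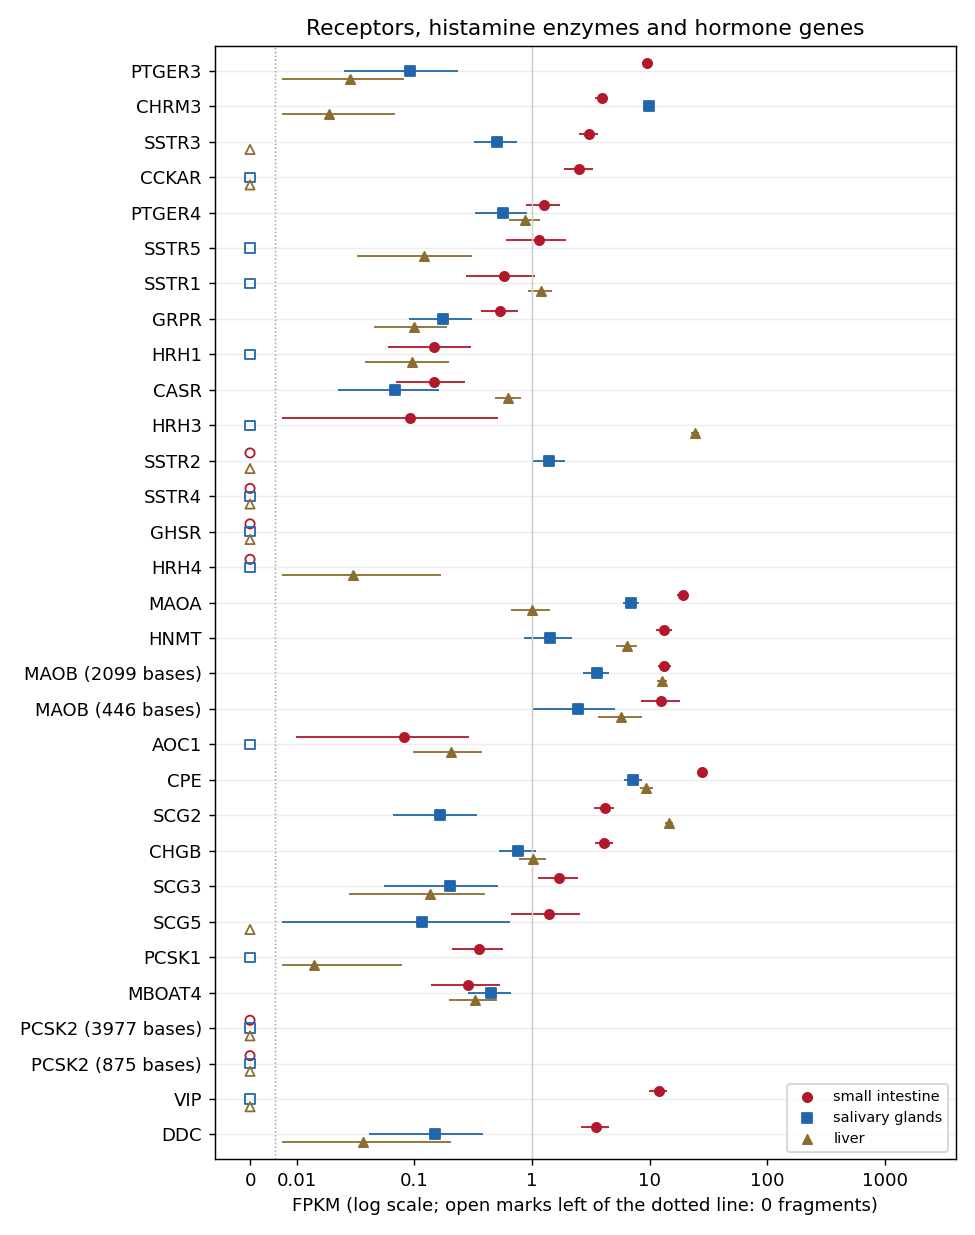
FPKM (log axis) of receptors of acid control, genes listed for histamine breakdown and hormone genes in the 3 libraries, marked as in the plot of member levels. The gene named HRH3 by its NR product stands at 24.3 in liver against 0.0927 in the library labelled small intestine, and PTGER3 at 9.58 in the latter.

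Downstream of the receptors, most genes were present in all libraries. Of 41 genes with NR products of the list, 14 of 31 tested were higher and 2 lower in the library labelled small intestine than in salivary glands, and 19 of 34 were higher and 4 lower than in liver. All genes tested had 20.6% higher and 16.9% lower in the first comparison and 24.2% in each direction in the second. MYLK, the myosin light chain kinase, had an FPKM of 337, 41.6 and 7.59, and GNAS, the stimulatory G protein subunit, had 209, 174 and 107. Adenylate cyclases, which act after the H2 receptor, differed by member. ADCY6 had an FPKM of 85.9, 19.9 and 5.67, and ADCY1 had 0.0195, 0.00751 and 24.7.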

How the data were processed

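Reads cleaned by the authors were aligned by them to the M. javanica genome with TopHat2 under an unstranded setting, and Cufflinks supplied genes outside the annotation. The deposited counts are whole fragments per gene, not scaled. The deposited FPKM was made by the authors from fragments, transcript length and mapped fragments, and it departs from that formula for most genes (within 10% of it for 16.4, 25.5 and 21.9% of genes with at least 10 fragments). The deposited tables also hold a score, the count that the authors scaled by a nearly constant factor (medians 1.57, 1.35 and 0.916, held within 1% by 85.4, 85.4 and 87.0% of genes with counts). The deposited annotation gives NR, Swiss-Prot and KEGG entries, and the genome build of the scaffolds is not given in the sources used here.

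Counts were scaled by TMM in edgeR 4.0.16 (R 4.3.3), with factors of 0.851, 1.17 and 1.00 for the libraries labelled small intestine, salivary glands and liver. Intervals came from scipy 1.17.1 under Python 3.11.15 (pandas 2.3.3, numpy 2.4.6). Plots used matplotlib 3.10.9. A gene was called at a log2 difference of at least 1, with a count of 1 in place of 0, where at least 10 fragments lay in either library. With 1 library a tissue no test was run. The call rule was tested on simulated data. The members and lists were chosen with earlier results of these data known. Genes named are all members, the 2 with the highest FPKM in each list, and those above an FPKM of 1 in the library labelled small intestine in the parietal, receptor and hormone lists. ATP12A, AMN, CFTR, AOC1, HRH1, HRH4, SSTR2, SSTR4, MBOAT4, GHSR, PCSK1, PCSK2, the intestinal hormones and lineage factors at or near 0, ADCY6, ADCY1, TATDN2, ANPEP, SLC15A1, CLCA1, BHLHA15, LIPF and the markers at or near 0 were named after their values were seen, as was the choice to assign list genes by NR product. Some genes that this rule names are not reported here. Alternatives changed the scaling, the fold, the fragment minimum, the FPKM threshold and the assignment of genes.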

Additional observations from a re-analysis of the deposited data

How the results depend on the processing

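No paired analysis was possible because each tissue has 1 library. The members higher in the library labelled small intestine numbered 8 against salivary glands under all scalings and 6 against liver, and ranged from 7 to 10 and from 5 to 8 with other fragment minimums. Members lower than in liver went from 2 to 1 with a 4-fold threshold, with scaling without the 10 most abundant genes, and with genes assigned by NR product. Over all pathway lists with genes assigned by symbol, 17 of 125 tested were lower than in salivary glands and 66 higher. Against liver, 17 of 127 were lower and 77 higher. Over all genes tested, 16.9% were lower and 20.6% higher than in salivary glands, and 24.2% lower and 24.2% higher than in liver. The lower counts went to 10 and 8 with a 4-fold threshold. With genes assigned by NR product they were 14 of 95 and 14 of 99. Members above an FPKM of 1 in salivary glands went from 2 to 0 above 5, to 3 above 0.5, with TPM and with recomputed FPKM, and to 4 with 10 or more fragments; in liver they went from 3 to 5 with 10 or more fragments.

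Of 90 member differences recomputed, 87 stayed within the counting interval, 3 did not and 0 changed sign. With library size only, the log2 difference from salivary glands was 9.59 in place of 10.05 for ATP4A and 2.59 in place of 3.05 for GHRL. That setting shifted the median of all genes by -0.457 against salivary glands and by -0.239 against liver, and 35.7% of all calls were then higher than in salivary glands in place of 54.9%. Scaling without the 10 most abundant genes shifted it by 0.317 against liver, with 61.0% of calls higher in place of 50.03%. Scaling by the deposited factor, FPKM recomputed and assignment by NR product were chosen after seeing the data. Depth limits what can be said of GIF, SST, CCKBR and GAST, and no replicate bears on any value.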
